A study of Rattus norvegicus with 12 samples.

Results

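The MYC, MXD and ID factors are 8 regulators of transcription built on the helix-loop-helix fold (Myc, Max, Mxd3, Mxd4, Mxi1, Id1, Id2 and Id3), and they are described here together with Bmp2, which encodes a secreted inducer of the ID genes. Members were the probe sets of the array whose annotation gave 1 gene symbol and that symbol was on this list. This gave 13 probe sets for 9 genes, of 10411 genes that the array measured with at least 1 such probe set. RNA was compared between GP7TB, a chemically transformed derivative of a rat liver cell line that forms tumors after transplantation (tumor cells), and WB-F344, the diploid liver epithelial line it came from (normal cells). Each line was cultured for 18 hours in a custom Chee's medium without arginine (arginine-deficient) or with L-arginine HCl at 0.168 g/l (arginine-sufficient). Both media held fetal bovine serum. The serum can carry arginine, so the deficiency was not complete. The 4 groups were thus arginine-deficient tumor cells, arginine-sufficient tumor cells, arginine-deficient normal cells and arginine-sufficient normal cells, with 3 cultures each and 1 RAE230A array per culture, 12 arrays in all. Each cell type is 1 cell line, so values describe these lines.

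MYC binds DNA as a pair with MAX, at a short palindrome called the E-box, and raises transcription of genes for growth and metabolism. MXD3, MXD4 and MXI1 also pair with MAX, occupy the same sites and bring corepressors there, so they compete with MYC. ID proteins have the helix-loop-helix fold but no DNA-binding region, and they hold partner proteins (E proteins) away from DNA. Signalling from BMP receptors through SMAD proteins is a well known inducer of the ID genes. In liver, Myc is known as an early response gene of regeneration.

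The 250 bases before the RefSeq start site (build GRCr8) were found for 7 of the 9 members, and those of 4 genes are shown as context: Max and Mxd4 hold the E-box bound by MYC, MAX and MXD proteins, and Mxd3 and Id3 are the members that passed the test in tumor cells. No test below uses these sequences. Capitals mark the E-box CACGTG, and each sequence is read 5′ to 3′ on the strand of its gene. Max lies at chr6:101395291-101395540 on the minus strand, Mxd4 at chr14:80786531-80786780 on the plus strand, Mxd3 at chr17:9306302-9306551 on the plus strand and Id3 at chr5:153656041-153656290 on the plus strand.
Max: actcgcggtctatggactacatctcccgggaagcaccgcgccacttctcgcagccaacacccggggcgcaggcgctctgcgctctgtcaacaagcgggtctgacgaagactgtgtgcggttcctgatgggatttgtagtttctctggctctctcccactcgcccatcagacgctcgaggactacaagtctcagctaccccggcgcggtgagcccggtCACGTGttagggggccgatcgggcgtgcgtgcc
Mxd4: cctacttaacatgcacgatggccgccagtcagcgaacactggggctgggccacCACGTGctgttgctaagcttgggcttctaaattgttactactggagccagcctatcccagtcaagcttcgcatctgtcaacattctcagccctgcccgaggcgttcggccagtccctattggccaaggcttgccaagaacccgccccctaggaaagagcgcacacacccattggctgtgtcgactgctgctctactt
Mxd3: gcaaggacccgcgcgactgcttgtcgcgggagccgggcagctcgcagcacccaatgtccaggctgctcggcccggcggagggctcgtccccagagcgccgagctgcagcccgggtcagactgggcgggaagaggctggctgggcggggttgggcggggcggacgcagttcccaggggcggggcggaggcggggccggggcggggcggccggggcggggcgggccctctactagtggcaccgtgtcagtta
Id3: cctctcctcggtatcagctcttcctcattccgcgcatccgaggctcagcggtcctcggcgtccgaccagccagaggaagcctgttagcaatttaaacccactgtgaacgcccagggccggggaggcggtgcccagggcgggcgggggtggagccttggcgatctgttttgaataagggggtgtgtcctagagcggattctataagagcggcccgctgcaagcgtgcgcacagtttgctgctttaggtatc
The E-box began 33 bases before the start of Max and 197 bases before that of Mxd4. It occurred in 2 of the 7 members and in 5.59% of all 33469 windows of this length in the RefSeq table. A GC-rich element of BMP targets (GGCGCC) and the amino acid response element (TGATGNAA), searched on both strands, occurred in 0 of the 7 members, against 8.69% and 3.4% of all windows. The member windows held 54.8% to 76.8% GC, beside a median of 51.2% over all windows, and the shares were not adjusted for this. These matches describe the letters of the windows alone.

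The values are linear signals from Microarray Suite, brought by the authors to a common mean per array, and levels are compared within a probe set only. A probe set was taken as expressed on an array if it ranked in the highest 54% of signals there, a threshold of 146.3 to 191.2. Probe sets expressed on at least 3 of the 12 arrays were tested, 9745 in all, and 12 of the 13 member probe sets (each of the 9 genes) were among them. Each difference is a log2 change fitted by limma, shown ± its standard error with n = 3 arrays in every group, and a call is an adjusted p (Benjamini-Hochberg over the 9745 probe sets) under 0.05. In simulated arrays, 100 probe sets carried a log2 change of 1 and 100 a change of 2. The change of 1 was called for 44% of the probe sets that carried it in tumor cells and 54% in normal cells. Fewer calls make the adjusted threshold stricter, and only 16 probe sets were called in normal cells here, so 54% can be too high there. Arginine-deficient and arginine-sufficient cultures were paired by experiment, 3 per line, and a value blocked by experiment is added wherever it alters a call. The tumor arrays were all scanned on 1 day and the normal arrays on 3 other days, so line and scan day cannot be told apart wherever tumor cells are set against normal cells. The lines shared no chip lot either, so the same holds for chip lot. The arginine-sufficient normal array of experiment 2 was the only array of its scan day and of its chip lot. The ratio of 3' to 5' Gapdh probe sets, a sign of RNA quality, was 1.13 to 1.23 in arginine-deficient and 1.09 to 1.14 in arginine-sufficient tumor arrays, and 1.01 to 1.38 in arginine-deficient and 0.998 to 1.25 in arginine-sufficient normal arrays. The same ratio of Actb spread more widely, at 1.21 to 1.63 in arginine-deficient and 1.01 to 1.28 in arginine-sufficient tumor arrays, with 1.63 without arginine and 1.01 with it in experiment 3. In normal arrays it was 1 to 1.41 without arginine and 1.10 to 1.16 with it. The part of RNA quality in the results was not tested.

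The label of liver epithelial cells was checked on 9 markers, of which Krt8, Vim, Gja1 and Gstp1 were expressed on 12 of 12 arrays. Krt18, Krt19, Cdh1, Epcam and Afp were expressed on 0 of 12, so the epithelial defining genes other than Krt8 were not seen. Of 8 mesenchymal markers, 3 were expressed on every arginine-deficient and every arginine-sufficient tumor array, against 4 in arginine-deficient and 5 in arginine-sufficient normal cells. Their summed signal was 4368 to 7520 in arginine-deficient and 7357 to 9532 in arginine-sufficient tumor arrays, and 41488 to 64675 in arginine-deficient and 53122 to 75116 in arginine-sufficient normal arrays. Of the measured hepatocyte, endothelial and leukocyte markers, only Cd14 was expressed on all arrays. In the tumor line, both arrays of experiment 1 were the highest 2 of the 6 tumor arrays on 5 of the 13 member probe sets, and in experiments 2 and 3 this was so on 0. The run records state that the tumor cultures of experiments 1 and 3, but not those of experiment 2, were trypsinised before plating in the test medium.

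Among the members, arginine deficiency went with more Myc RNA averaged over both lines, with less Mxd3 RNA on average and in tumor cells, and with less Id3 RNA in tumor cells. Of the 12 tested member probe sets, 2 passed the test in tumor cells (Mxd3 and Id3, both lower), against 1.91% of all probe sets tested. In normal cells limma called 0 of 12, against 0.164% of all probe sets, and an ordinary linear model also called 0. An unadjusted limma p under 0.05 was found there for 4 of the 12 (Myc, Mxd3 and both probe sets of Id2), beside 920 of all 9745 probe sets. Averaged over both lines, 2 passed (Myc higher, Mxd3 lower), against 2.96% of all. With the experiment as a block, 3 passed in tumor cells (Myc, Mxd3 and Id3), 2 in normal cells (Myc and Id2) and 5 on average (Myc, Mxd3, Mxd4, Id2 and Id3), where 11%, 2.41% and 14.7% of all probe sets passed. With both tumor arrays of experiment 1 left out, or both of experiment 2, 0 members passed in tumor cells and 1 (Mxd3) on average. The members are few and were chosen with earlier results of these data known, which can favour such counts. The shares of members and of all probe sets were not tested against each other. The 3 arginine-deficient signals lay wholly above or below the 3 arginine-sufficient ones on 4 of 12 member probe sets in tumor cells, against 23.2% of all probe sets. In normal cells they did so on 4 of 12, both probe sets of Id2 among them, against 13.9%. A ratio of at least 2-fold in at least 6 of the 9 pairs of arrays was found in tumor cells for Myc (higher, 1.08% of all probe sets) and for Mxd3 and Mxd4 (lower, 1.4%, with Mxd4 expressed on 0 of 6 tumor arrays). In normal cells 0 members had it, where 0.77% of all probe sets did as higher and 0.359% as lower. These counts use the ratios alone, without the presence calls, change calls and mean fold above 2 that the study also named, so they are not its selection of genes. The study listed Id2 as increased in normal cells and Id3 as decreased in tumor cells. Neither met the ratio count here: Id2 had 3 and 1 of the 9 ratios on its 2 probe sets, and Id3 had 3. In these bulk cultures, less RNA per cell and fewer expressing cells cannot be told apart.

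**Figure D1:**
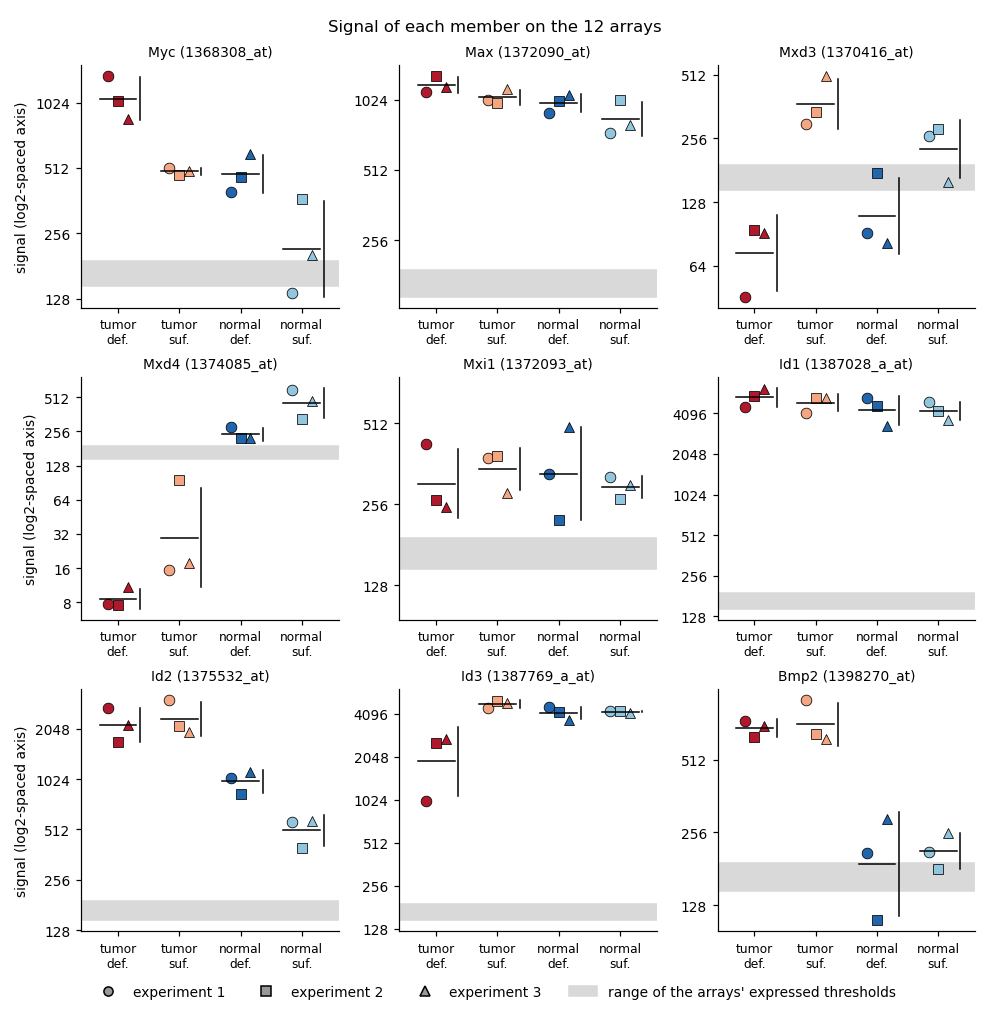
Signal of the brightest probe set of each member on the 12 arrays (y axis, log2-spaced, arbitrary signal units), for arginine-deficient and arginine-sufficient tumor cells and then arginine-deficient and arginine-sufficient normal cells. Points are arrays shaped by experiment, horizontal lines are means of the log2 signals, vertical lines their SD, and the grey band spans the arrays' expressed thresholds, under which all 6 tumor signals of Mxd4 lie.

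Myc, the growth-promoting transcription factor, had signals of 1350.6, 1043.9 and 857.3 on the arginine-deficient tumor arrays of experiments 1 to 3, against 514.0, 473.5 and 494.9 on the arginine-sufficient ones. Its normal-cell signals were 398.0, 467.2 and 593.2 without arginine, against 135.9, 370.5 and 203.3 with it. Every arginine-deficient array lay above every arginine-sufficient array of its line. The order of the 4 groups ran from arginine-deficient tumor cells down to arginine-sufficient tumor cells, arginine-deficient normal cells and arginine-sufficient normal cells, and the middle pair overlapped. The log2 change was 1.11 ± 0.30 in tumor cells (adjusted p = 0.0814) and 1.14 ± 0.30 in normal cells (adjusted p = 0.213), so in the main fit neither passed. These are levels 2.16-fold and 2.21-fold higher without arginine. The tumor value passed without the arginine-sufficient normal array of experiment 1 or of experiment 2 (adjusted p = 0.0448 and 0.033), which enter it through the shared spread. Of 12 fits that each left out 1 array, only these 2 passed, and the adjusted p reached 0.258. The tumor value also passed with the tumor arrays fitted alone (adjusted p = 0.0286) and with signals under the threshold raised to it (0.0404). With a block for scan day or chip lot the tumor value passed too (0.0167 and 0.0466). The normal value passed with these 2 blocks (0.0141 and 0.0403), and not with low signals raised (0.207). The arginine-sufficient normal array of experiment 2 was alone on its scan day and chip lot, so either block fits it exactly. These passes thus largely repeat leaving that array out. With the lot block the normal log2 change was 1.53, the same as without the array. Averaged over both lines Myc rose (log2 change 1.13 ± 0.21, adjusted p = 0.0135). Blocked by experiment it passed in tumor cells (adjusted p = 0.0106) and in normal cells (adjusted p = 0.0284). The difference between the responses was -0.03 (95% interval -0.95 to 0.89), which leaves room for a gap of nearly 2-fold in either direction. In normal cells the arginine-sufficient array of experiment 2 was the high one, at 370.5. Without it the log2 change was 1.53 (adjusted p = 0.0256), the only 1 of the 12 fits with an array left out that passed in normal cells. The adjusted p of these fits reached 0.561. Inside the 2 scan days on which both media were scanned, the log2 change was 1.67 and 1.55.

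Max encodes the shared partner of MYC and of the MXD proteins. Its brighter probe set, 1372090_at, had 1105.5, 1291.4 and 1161.1 in arginine-deficient tumor cells, against 1018.6, 995.0 and 1142.6 in arginine-sufficient tumor cells. In normal cells the signals were 903.3, 1014.5 and 1073.5 without arginine, against 737.5, 1022.5 and 801.1 with it. The groups overlapped in both lines, and the log2 changes, 0.17 (95% interval -0.19 to 0.53) in tumor cells and 0.23 (-0.12 to 0.59) in normal cells, did not pass. The other probe set, 1387646_a_at, followed the experiment rather than the medium in tumor cells, with 529.5 without arginine and 532.7 with it in experiment 1 and 104.6 to 214.1 on the other 4. Its log2 change was 0.47 (-0.82 to 1.75) in tumor cells, too wide an interval to place it.

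Mxd3 is a MAX partner and repressor known from dividing cells. It had 45.7, 94.9 and 91.3 in arginine-deficient tumor cells, against 299.5, 341.0 and 503.5 in arginine-sufficient tumor cells. All 9 ratios between these arrays were at least 2-fold, and the log2 change was -2.34 ± 0.38 (adjusted p = 0.0113), a 5.06-fold lower level. The gene was expressed on 0 of 3 arginine-deficient and 3 of 3 arginine-sufficient tumor arrays, so the lower side of this fold lies among signals under the threshold. With all signals under the threshold raised to it, the change was -1.24 and still passed (adjusted p = 0.00655). In normal cells it had 91.7, 176.3 and 82.3 without arginine, against 263.9, 282.7 and 158.8 with it, and the groups overlapped through experiments 2 and 3. This log2 change of -1.05 ± 0.38 did not pass (adjusted p = 0.397, or 0.0626 with the experiment as a block). Within experiments 1 to 3 it was -2.71, -1.85 and -2.46 in tumor cells, and the normal cells gave -1.53, -0.68 and -0.95. The difference between the lines, -1.29 ± 0.54, did not pass either (adjusted p = 0.824), and the average over both, -1.70 ± 0.27, did (adjusted p = 0.00482).

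Mxd4, a MAX partner and repressor known from resting and differentiated cells, was expressed on 0 of 6 tumor arrays and 6 of 6 normal arrays. It had 7.7, 7.6 and 10.8 in arginine-deficient and 15.5, 94.7 and 17.7 in arginine-sufficient tumor cells, all 6 under the expressed threshold. The normal cells had 282.6, 222.6 and 225.5 without arginine, against 599.5, 328.3 and 478.3 with it. The arginine-deficient arrays lay below the arginine-sufficient ones in both lines, with log2 changes of -1.79 ± 0.61 in tumor cells (adjusted p = 0.166) and -0.91 ± 0.61 in normal cells (adjusted p = 0.694). Averaged over both lines the change was -1.35 ± 0.43 (adjusted p = 0.113), and it passed only with the experiment as a block (adjusted p = 0.0429). Raising low signals to the threshold gave an average of -0.50 (adjusted p = 0.0714), and without the arginine-sufficient tumor array of experiment 2 it was -0.93, so the blocked call includes tumor signals that are not above the threshold. The tumor value rests on signals that the array does not count as expressed and on the 94.7 of experiment 2, without which it was -0.95.

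Mxi1, a further MAX partner and MYC antagonist, gave no call with arginine. Its probe set 1372093_at ran from 250.5 to 428.8 in arginine-deficient and from 281.3 to 388.5 in arginine-sufficient tumor cells. In normal cells it ran from 223.5 to 495.5 without arginine and from 267.6 to 323.8 with it. All 4 groups overlapped, and the log2 changes were -0.18 (95% interval -0.80 to 0.43) in tumor cells and 0.16 (-0.45 to 0.78) in normal cells. The probe set 1368963_at was expressed on 1 of 12 arrays and was the member probe set left out of the test.

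**Figure D2:**
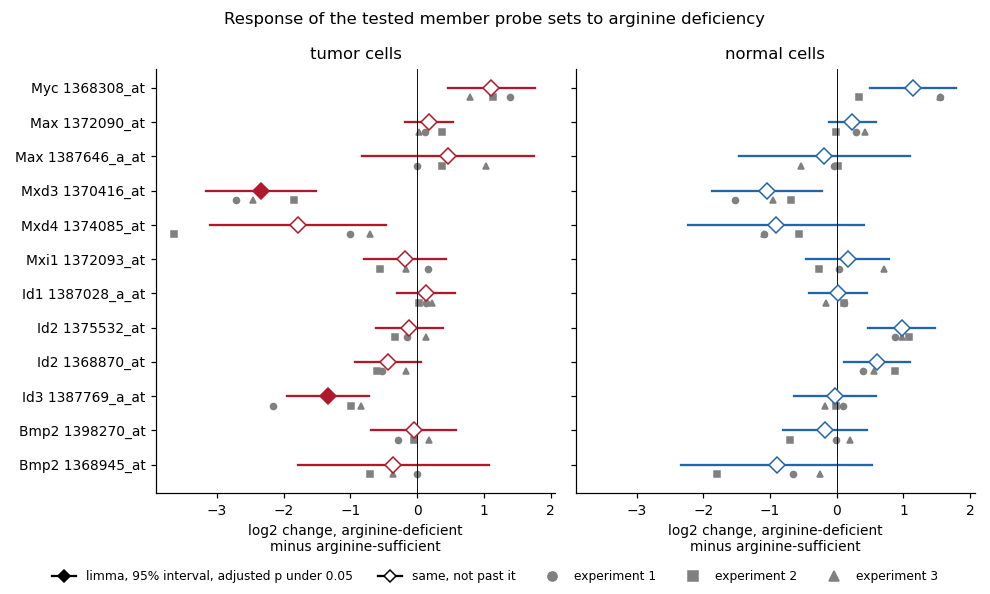
Log2 change in signal, arginine-deficient minus arginine-sufficient (x axis), for the 12 tested member probe sets (rows) in tumor cells (left) and normal cells (right). Diamonds with lines are limma estimates with 95% intervals, filled where the adjusted p was under 0.05 (Mxd3 and Id3 in tumor cells), and grey marks are the 3 experiments, of which all 6 lie above 0 for Myc.

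Id3, which with Id1 and Id2 encodes inhibitors of E proteins, passed the test in tumor cells and did not in normal cells. It had 1006.7, 2549.4 and 2721.8 in arginine-deficient tumor cells, against 4500.5, 5075.5 and 4896.7 in arginine-sufficient tumor cells. The normal cells had 4553.8, 4216.3 and 3720.0 without arginine, against 4263.0, 4265.6 and 4182.9 with it. The arginine-deficient tumor arrays were the 3 lowest of the 12, and the other 3 groups lay between 3720.0 and 5075.5. The log2 change was -1.33 ± 0.28 in tumor cells, 2.52-fold lower (adjusted p = 0.0329), and -0.03 ± 0.28 in normal cells (adjusted p = 0.986). The difference between the lines, -1.30 ± 0.40, did not pass (adjusted p = 0.824, or 0.106 with the experiment as a block), so a response particular to tumor cells was not shown. The average over both lines was -0.68 ± 0.20 (adjusted p = 0.0881), which passed with the block (adjusted p = 0.00947) or without the arginine-deficient tumor array of experiment 1 or 3 (adjusted p = 0.0357 and 0.0484). Only 3 of the 9 tumor ratios were 2-fold or more, all with the arginine-deficient array of experiment 1. Without that array the log2 change was -0.87 and passed (adjusted p = 0.0189), and the call was lost without the arginine-deficient array of experiment 2 (adjusted p = 0.067) or any 1 of the arginine-sufficient tumor arrays (adjusted p = 0.0884, 0.144 and 0.0694 for experiments 1 to 3). Within chip lots of tumor cells the change was -0.83 in the lot with 2 arrays of each medium and -2.33 in the lot with 1 of each.

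Id2 gave higher signals in tumor cells than in normal cells in both media, and its arginine-deficient signals lay above the arginine-sufficient ones in normal cells. Its brighter probe set, 1375532_at, had 2742.6, 1705.2 and 2159.5 in arginine-deficient tumor cells, against 3051.5, 2140.8 and 1964.3 in arginine-sufficient tumor cells. Normal cells gave 1044.3, 832.9 and 1135.4 without arginine, against 569.7, 395.1 and 575.1 with it. The normal groups did not overlap and the tumor groups did. In normal cells the log2 change of 0.98 ± 0.23 (adjusted p = 0.155) passed with the experiment as a block (adjusted p = 0.00537). The tumor value was -0.12 ± 0.23 (adjusted p = 0.878), and the average of 0.43 ± 0.17 (adjusted p = 0.177) passed with the block (adjusted p = 0.0113). The second probe set, 1368870_at, gave -0.43 ± 0.23 in tumor cells (adjusted p = 0.401), where its signals of 714.8, 521.4 and 530.4 without arginine stood against 1025.3, 790.3 and 596.9 with it. Its normal signals of 335.8, 316.3 and 367.6 without arginine stood against 254.9, 173.1 and 249.5 with it, a log2 change of 0.61 ± 0.23 (adjusted p = 0.419, or 0.0746 with the block). Its average over both lines was 0.09 ± 0.16 (adjusted p = 0.81, or 0.643 with the block), so the blocked calls of Id2 rest on 1375532_at alone. The difference between the responses was -1.09 ± 0.33 on the first probe set and -1.04 ± 0.33 on the second, and neither passed (adjusted p = 0.824 for each). Over all probe sets limma called 0 differences (0% of those tested), with 550 at an unadjusted p under 0.05, and 0.0513% passed with the experiment as a block, where 0 of the 12 member probe sets did.

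Id1, a further ID gene, gave no call with arginine. It had 4549.9, 5472.6 and 6238.1 in arginine-deficient tumor cells, against 4142.5, 5341.8 and 5357.8 in arginine-sufficient tumor cells. Its normal-cell signals were 5328.3, 4620.7 and 3285.2 without arginine, against 4962.0, 4284.7 and 3670.4 with it. All neighbouring groups overlapped, and the 95% intervals of the log2 change, -0.31 to 0.57 in tumor cells and -0.42 to 0.45 in normal cells, exclude a 2-fold change in either direction. The ID genes were not tested against each other.

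Bmp2, the secreted ligand, differed between the lines and gave no call with arginine. Its brighter probe set, 1398270_at, had 745.1, 634.3 and 708.2 in arginine-deficient tumor cells, against 907.4, 655.8 and 624.6 in arginine-sufficient tumor cells. Normal cells gave 210.0, 110.6 and 292.1 without arginine, against 212.5, 180.6 and 255.2 with it. The log2 change with arginine deficiency was -0.05 (95% interval -0.69 to 0.58) in tumor cells and -0.18 (-0.81 to 0.46) in normal cells. The probe set 1368945_at was expressed on 5 of 6 tumor and 0 of 6 normal arrays and also gave no call with arginine, at -0.36 (-1.79 to 1.08) in tumor cells and -0.90 (-2.33 to 0.53) in normal cells.

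**Figure D3:**
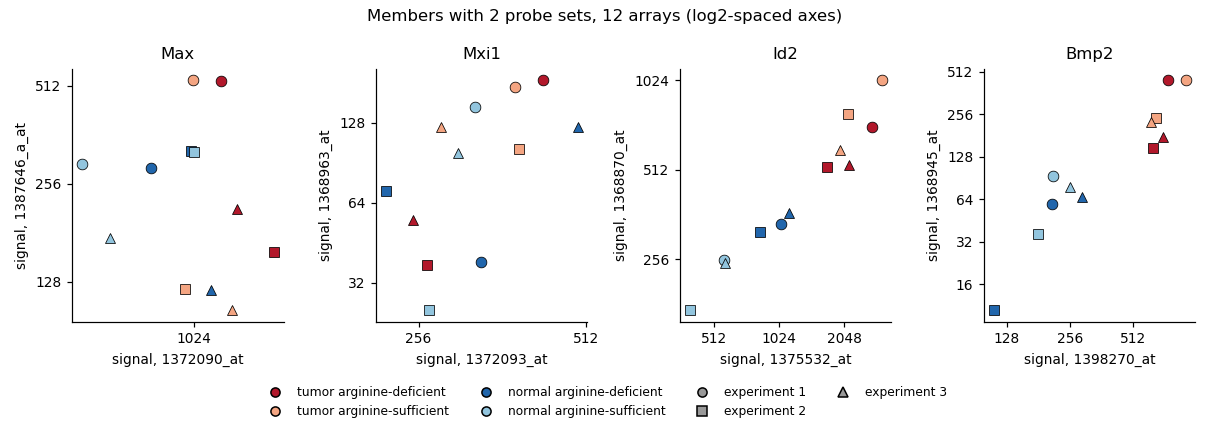
Signals of the 4 members with 2 probe sets, the brighter on the x axis and the dimmer on the y axis (both log2-spaced, arbitrary signal units), 1 point per array coloured by group and shaped by experiment. With the mean of each line removed, the 2 probe sets had r = 0.886 for Id2, 0.866 for Bmp2 and -0.19 for Max, and the experiment 1 arrays of tumor cells sit at the top of the dimmer probe sets of Max, Mxi1 and Bmp2.

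Between the lines, Myc, Id2 and Bmp2 were higher and Mxd4 was lower in tumor cells, in both media. Some relatives outside the members went the other way. Mycn, Id4, Bmp4 and Bmp6 were called lower in tumor cells, with log2 differences of -6.7, -2.8, -3.3 and -3.8 with arginine. Without it they were -6.3, -3.2, -2.1 and -4.2. Their tumor levels, 11.9 to 126, lay under the expressed threshold. Of all probe sets, 34.6% differed between the lines with arginine and 40.7% without it. Of the 19 tested genes of the MYC network, 3 were higher and 2 lower in tumor cells with arginine, and 4 and 3 without it. The BMP pathway (28 tested) had 1 higher and 9 lower in both media. MYC targets (32 tested) had 9 and 4 with arginine, and 13 and 3 without it. E proteins and other basic helix-loop-helix factors (19 tested) had 1 and 4, and 1 and 3. These shares were not tested against each other. With arginine, 6 of 12 member probe sets, from 4 genes, differed between tumor and normal cells (5 higher, 1 lower), against 34.6% of all probe sets, and 8 of 12 did not overlap, against 49.2%. Without arginine, 7 of 12, from 5 genes, differed (5 higher, 2 lower), against 40.7%, and 8 of 12 did not overlap, against 48.6%. Id2 and Bmp2 count with both of their probe sets. Tumor minus normal, Myc had log2 differences of 1.19 ± 0.30 with arginine (adjusted p = 0.00809) and 1.15 ± 0.30 without it (adjusted p = 0.0081). Id2 on 1375532_at had 2.21 ± 0.23 with arginine (adjusted p = 1.02e-05) and 1.12 ± 0.23 without it (adjusted p = 0.00197), and Bmp2 on 1398270_at had 1.75 ± 0.30 and 1.88 ± 0.30 (adjusted p = 0.000523 and 0.000253). Their second probe sets also passed in both media. The probe set 1368945_at of Bmp2 entered the test through tumor arrays alone, which favoured a higher tumor level in advance. Both of its calls were lost once signals under the threshold were raised to it (0.67 and 0.47, adjusted p = 0.127 and 0.265). That with arginine was also lost without the arginine-sufficient tumor array of experiment 1 (adjusted p = 0.0805) or the arginine-sufficient normal array of experiment 2 (adjusted p = 0.0838). That of 1368870_at of Id2 without arginine was lost without the arginine-deficient tumor array of experiment 1 (adjusted p = 0.056). Id3 was lower in tumor cells without arginine, with a log2 difference of -1.12 ± 0.28 (adjusted p = 0.00673), and with arginine the difference was 0.19 (95% interval -0.43 to 0.80). Mxd4 was lower in tumor cells, with log2 differences of -3.94 ± 0.61 with arginine (adjusted p = 0.000271) and -4.82 ± 0.61 without it (adjusted p = 4.54e-05). Max on 1372090_at and Mxd3, Mxi1 and Id1 gave no call between the lines, and Mxd3 with arginine, at 0.71 ± 0.38 (adjusted p = 0.173), passed with low signals raised (0.64, adjusted p = 0.0251). Max on 1387646_a_at, with -0.43 ± 0.60 with arginine (adjusted p = 0.621), passed at -1.17 with tumor experiment 1 left out (adjusted p = 0.0465). Since the tumor signals of Mxd4 were not above the threshold, its folds are not well measured. With low signals raised they were -1.45 and -0.62 (adjusted p = 7.85e-05 and 0.0235). Mxd4 entered the test through the normal arrays alone, every one of them above the threshold. A lower tumor level is then given in advance, so these passes are no separate support. The summed mesenchymal markers given above also differ between the lines, and their part in these differences was not tested.

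The members were described against each other over the 12 arrays, with the mean of each line removed, as Pearson correlations that share medium, experiment and array. Myc had r = 0.826 with Max on 1372090_at and 0.134 with Max on 1387646_a_at, -0.754 with Mxd3 and -0.736 with Mxd4. Mxd3 had r = 0.831 with Id3, and Id1 had r = 0.151 with Id3. The 2 probe sets of Id2 had r = 0.886 and those of Bmp2 0.866. By the same measure, the genes most like each member were picked out of 7192 genes, so their values are high by choice. Medium was not removed, so a change with arginine like that of the member favours this choice. The changes given for these genes are thus no separate support. For Myc these were Slc7a1 (r = 0.967), which encodes a cationic amino acid carrier, Gar1 (0.946), a component of small nucleolar ribonucleoproteins, and Gtpbp4 (0.943), a GTP-binding protein of ribosome assembly. Slc7a1 rose in both lines, by 1.22 in tumor cells (adjusted p = 0.0195) and 1.34 in normal cells (adjusted p = 0.0439). For Mxd3 they were Myl12b (0.959), a myosin light chain, Ncapd2 (0.953), a condensin subunit, and Hyls1 (0.945), a centriole protein. Ncapd2 fell in tumor cells, with a log2 change of -1.24 (adjusted p = 0.0337). For Id3 they were Hpcal1 (0.966), a calcium-binding protein, Inhbb (0.955), an activin subunit, and Sncg (0.951), a synuclein. Inhbb had -1.88 in tumor cells (adjusted p = 0.0721) and 0.01 in normal cells (adjusted p = 0.997). For Id2 they were Ank2 (0.923), an ankyrin, Ing3 (0.9), a chromatin reader, and Ncoa1 (0.885), a nuclear receptor coactivator. For Max they were Hgh1 (0.947), Nifk (0.932) and Hnrnpc (0.932). For Mxd4 they were Myo18a (0.865), Slc44a1 (0.858) and Camk2g (0.844), and for Mxi1 they were Zfand6 (0.949), Mia3 (0.935) and Pum2 (0.929). Id1 was most like Eif2b2 (0.986), Cmtm7 (0.956) and Nelfb (0.931), and Bmp2 was most like Rabgap1 (0.944), Fam219b (0.904) and Stx4 (0.898).

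The related lists are read beside the shares of all probe sets that passed, which were 1.91% in tumor cells, 0.164% in normal cells and 2.96% on average, and 11%, 2.41% and 14.7% with the experiment as a block. Of 19 tested genes of the MYC network (partners, cofactors and corepressors, 26 listed), 0 passed in tumor cells, in normal cells or on average, with medians of 0.01 in tumor cells and -0.14 in normal cells, beside -0.05 and -0.04 over all probe sets tested. With the experiment as a block, 2 of them fell in tumor cells, and 2 rose and 2 fell on average. Mnt, the MAX partner that antagonises MYC most widely, had log2 changes of 0.52 ± 0.25 in tumor cells (adjusted p = 0.345) and 0.35 ± 0.25 in normal cells (adjusted p = 0.719), and its average of 0.43 ± 0.18 (adjusted p = 0.204) passed with the block (adjusted p = 0.0372). Of 32 tested genes known as MYC targets (39 listed, most of them induced by MYC), Odc1 alone passed in tumor cells, and 3 rose and 0 fell on average. Odc1, the first enzyme of polyamine synthesis, rose by 1.11 ± 0.22 in tumor cells (adjusted p = 0.0247). Shmt2, a mitochondrial enzyme of one-carbon metabolism, rose on average by 0.86 ± 0.17 (adjusted p = 0.0184). Gadd45a, a growth arrest gene that MYC is known to repress, rose on average by 2.05 ± 0.37 (adjusted p = 0.0112). With the block, 6 targets rose and 0 fell in tumor cells, 2 rose and 2 fell in normal cells, and 6 rose and 2 fell on average. The target list had medians of 0.07 in tumor cells and -0.02 in normal cells.

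Of 19 tested E proteins and other basic helix-loop-helix factors (29 listed), 0 passed in either line, and on average Usf1, an E-box binding activator, fell with a log2 change of -0.51 ± 0.13 (adjusted p = 0.0499). Their medians were 0.06 in tumor cells and 0.09 in normal cells, and with the block 1 rose and 1 fell in tumor cells and 1 rose in normal cells. Tcf3, the E protein best known as a partner of ID proteins, did not pass the filter. Of 28 tested genes of the BMP pathway (47 listed), 0 passed in tumor cells, in normal cells or on average, and their medians were -0.10 in tumor cells and -0.02 in normal cells. With the block, 1 rose and 3 fell in tumor cells and 0 rose and 1 fell in normal cells. Smad1, which carries the BMP signal, had -0.22 ± 0.16 in tumor cells (adjusted p = 0.583). Smad6, an inhibitor and a target of that signal, had -1.04 ± 0.29 in tumor cells (adjusted p = 0.0911), which passed with the experiment as a block (adjusted p = 0.00178). Smad7, a further inhibitor, had 0.04 ± 0.26 in tumor cells (adjusted p = 0.969) and -1.05 ± 0.26 in normal cells (adjusted p = 0.164), of which the normal value passed with the block (adjusted p = 0.0167).

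**Figure D4:**
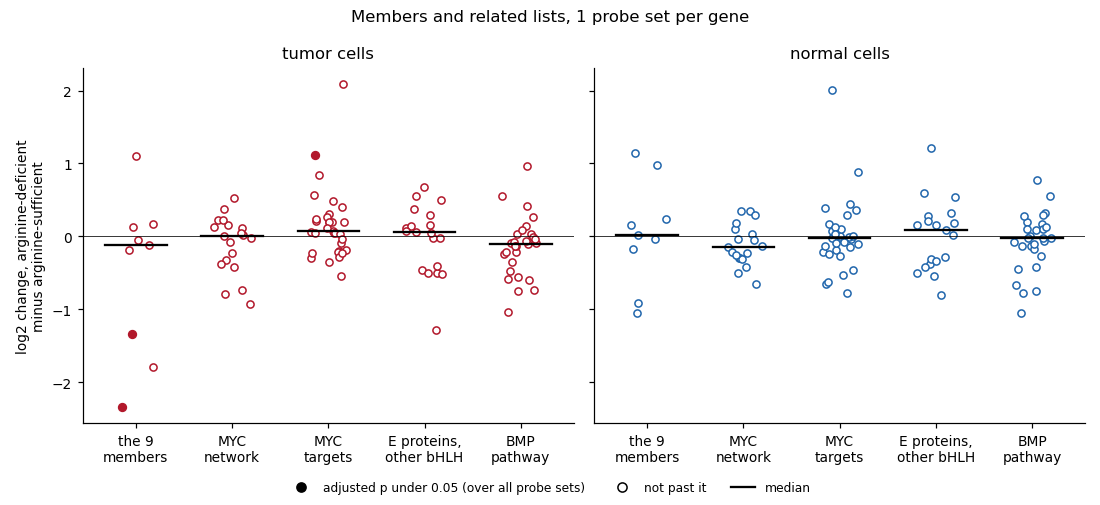
Log2 change in signal, arginine-deficient minus arginine-sufficient (y axis), in tumor cells (left) and normal cells (right) for the 9 members and the tested genes of the 4 related lists (x axis), 1 probe set per gene. Points are genes, filled where the adjusted p was under 0.05 (Mxd3, Id3 and the MYC target Odc1 in tumor cells), black lines are medians, and the medians of the lists lie between -0.14 and 0.09.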

How the data were processed

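RNA of 12 cultures was measured on RAE230A arrays. The deposited values are intensities, 1 signal per probe set, made by the authors with Microarray Suite 5.0 and scaled per array, on a linear scale and not centred per gene. Run records of the arrays were read for chip lot, scan day and culture handling, and arrays give no counts, so their number limits the precision. Replicates are separate cultures of 1 line. The main p-values rest on the spread between cultures within groups, pooled over the 4 groups and moderated across probe sets. Without the block they do not use the pairing by experiment.

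Signals under 1 were set to 1 and log2 was taken. Probe sets among the highest 54% of an array on at least 3 arrays were tested, without the 57 controls. Gene symbols are those of the array annotation (12777 probe sets with 1 symbol, 311 with several, 2778 with none). The fit (limma 3.58.1, R 4.3.3) had 1 mean per group and an intensity trend, with 6 contrasts across all 9745 probe sets: arginine-deficient minus arginine-sufficient in each line, their difference and mean, and tumor minus normal in each medium. It was tested on simulated data. Experiments were paired from the study's codes for normal cells and from the label order for tumor cells, and the run records give the same pairs. With group means removed, paired arrays correlated at 0.56, 0.04 and 0.42 in tumor and at 0.43, 0.42 and 0.38 in normal cells. Every member is named. From the related lists, genes past the threshold with arginine and 5 defining genes are named, and the 3 genes most like each member. Mycn, Id4, Bmp4 and Bmp6 are named for the comparison between the lines, as relatives of members. Members and lists were chosen with earlier results of these data known. Promoters are from RefSeq. Figures used matplotlib 3.10.9, with Python 3.11.15, numpy 2.4.6 and pandas 2.3.3. Alternatives covered filters, low signals, an offset of 16, normalization, moderation, blocks, 1 line alone and leaving out arrays.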

Additional observations from a re-analysis of the deposited data

Results flagged for a closer look

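Id2 on probe set 1368870_at was picked out because its response to arginine deficiency ran opposite ways in the lines in every experiment, with log2 changes of -0.52, -0.60 and -0.17 in tumor cells and 0.40, 0.87 and 0.56 in normal cells. The difference, tumor minus normal, was -1.04 ± 0.33 (limma adjusted p = 0.824, unadjusted p = 0.0067), so it failed the correction over 9745 probe sets. On 1375532_at the same experiments gave -0.15, -0.33 and 0.14 in tumor cells and 0.87, 1.08 and 0.98 in normal cells. Groups of 3 arrays are too small for a search for single outlying arrays.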

How the results depend on the processing

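In tumor cells the 2 member calls became 1 with no filter, with the highest 40% of signals (where Mxd3 was not tested), with median centring and with no intensity trend, and 0 with an ordinary linear model. Leaving out each array in turn gave 1 to 3 there. In normal cells the 0 calls became 2 with the replicate block and 1 with a block for scan day or for chip lot, and 0 to 1 with each array left out, the 1 without the arginine-sufficient array of experiment 2. A block for scan day or chip lot fits that array exactly, so these are not separate checks. Averaged over both lines the 2 calls became 1 with the highest 40% of signals (Mxd3 not tested) and 1 with an ordinary linear model, 5 with the replicate block, and 2 to 3 with each array left out. Leaving out both tumor arrays of experiment 1, or both of experiment 2, which was chosen after seeing the data, gave 0 calls in tumor cells and 1 on average. Mxd3 in tumor cells was then -2.15 (adjusted p = 0.0597) and -2.59 (0.124), Id3 -0.92 (0.0522) and -1.50 (0.234), and Myc on average 1.06 (0.0582) and 1.12 (0.114). Counts between tumor and normal cells and of differences between responses stayed within 1.5 times in each setting run for them, which leaves out the blocks and 1 line alone between the lines, and 1 line alone for the differences.

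Of 1740 single values recomputed over 72 results and 26 settings, 25 lost and 19 gained a call and 0 called values changed sign. A further 60 without a call took the opposite sign. Mxd3 in tumor cells passed without any 1 array (adjusted p up to 0.0494) and not with an ordinary linear model (0.0603), as did Myc on average (up to 0.0453, and 0.0712). Id3 in tumor cells also lost its call with no filter (0.056), median centring (0.055), no intensity trend (0.0568), an ordinary linear model (0.121) and the tumor arrays alone (0.0966). The replicate block added the member calls given in the report, removed 0 and changed no other member's call.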
